A study of Homo sapiens with 6 samples.

Results

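Cyperotundone (CYT), a sesquiterpenoid of sedge, was compared with control in MDA-MB-231-DR cells by RNA sequencing, and 30 protein-coding genes were at least 8-fold higher in CYT cells. These genes had a control mean of at least 2 CPM, a CYT mean of at least 8 times the control mean, and all 3 CYT libraries above all 3 control libraries. CPM is the count of a gene per 1000000 summed gene counts of its library. The 30 genes are 0.262% of the 11429 expressed coding genes, those with a control mean of at least 2 CPM, among 19817 coding genes and 58302 genes in all. Because the measured values chose them, their difference is described here and is not tested. The groups did not overlap, with CYT above control, in 16.2% of expressed coding genes. The same cut turned downward took 46 of 11694 coding genes with a CYT mean of at least 2 CPM (0.393%).

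MDA-MB-231-DR is a doxorubicin-resistant derivative of MDA-MB-231, a triple-negative human breast cancer line, and the study kept it in medium with a low concentration of doxorubicin. Control and CYT libraries share this line, and each group has 3 libraries. The CYT dose and time and the treatment of the control cells are not given in the sources used here for these libraries. The study's statistics section speaks in general of 3 independent experiments per group, but no source used here says that these libraries came from separate cultures, so the spread between them may be technical. The comparison addresses which genes respond to CYT in drug-resistant breast cancer cells.

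The 6 libraries held 13056270 to 17770102 counts, with the lowest control library at 14050849 and the highest CYT library at 14106017. Mesenchymal markers that define MDA-MB-231 were abundant, with VIM at 2099 to 2715 CPM in control and 854 to 1204 CPM in CYT libraries (log2 fold change -1.30 in edgeR, called lower by the rule given with the relatives). Of the luminal markers, ESR1 and PGR stayed at or under 0.225 CPM in all 6 libraries, while KRT8 and KRT18 were present at 89.3 CPM or more. KRT19 was called lower, from 387, 212 and 242 CPM in control to 38.7, 11.3 and 28.2 CPM in CYT libraries (log2 fold change -3.45, edgeR adjusted p = 0.00187). The 10 mesenchymal markers summed to 5878 to 6890 CPM in control and 3716 to 4037 CPM in CYT, and the 12 luminal markers to 892 to 1297 and 403 to 646 CPM. Basal markers summed to 132 to 181 CPM in control, nearly all of it EGFR (130 to 179 CPM). In CYT libraries they summed to 18.6 to 37.1 CPM, most of it EGFR (14.6 to 34.5 CPM, called lower). KRT5, KRT14, KRT17, DSG3 and KRT6A were under 1 CPM in all libraries. Leukocyte markers summed to 7.97 to 22.9 CPM in control and 11.5 to 19.5 CPM in CYT libraries, with CD68 at 3.6 to 21.8 CPM, PTPRC at 0 to 0.496 CPM and CD3E at 0. CD14 was the leukocyte marker called higher, from 0.225 to 1.35 CPM in control to 3.62 to 4.52 CPM in CYT libraries (log2 fold change 2.43, edgeR adjusted p = 0.0157, and 0.0634 without control 1). Fibroblast markers summed to 20.7 to 33.5 CPM in control, nearly all of it COL1A1 and PDGFRB. Both were called lower, by -2.16 and -2.54 on the log2 scale. In CYT libraries the sum was 6.51 to 7.87 CPM, most of it COL1A1 (2.61 to 3.9 CPM) and PDGFRB (0.536 to 2.98 CPM). DCN was at 0 in all libraries. Endothelial markers summed to 17.1 to 27.7 CPM in control and 6.43 to 9.98 CPM in CYT libraries. ENG was called lower (-2.16). KDR was called higher (2.27 on the log2 scale, at most 2.07 CPM), a call lost without any 1 control library. Erythroid markers summed to at most 0.46 CPM. The part of these shifts in the differences of the 30 genes was not tested. CPM is a share of the library, so more RNA of a gene per cell, more cells that hold it and less of other RNA cannot be told apart.

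By their known roles, 8 of the 30 genes regulate transcription, 4 encode RNA polymerase II or histones, 8 encode signalling proteins, and 10 encode other membrane, lysosomal, metabolic or little-described proteins. ID proteins, represented by ID2, bind basic helix-loop-helix factors and keep them off DNA. RGS proteins speed the hydrolysis of GTP on G protein alpha subunits and so shorten receptor signals. Core histones of the replication-dependent clusters package DNA and are made chiefly in S phase.

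The ratio of CYT mean to control mean ran from 8.03 for HCFC2 to 56.8 for ID2, with a median of 9.92 over the 30 genes. Over all expressed coding genes the median ratio was 0.911. Only 5 of the 30 exceeded 16-fold (ID2, RND1, EPHA4, RGS16 and MYCL), and 16 were under 10-fold. Most were low in control cells: 12 had a control mean under 3 CPM and 6 over 10 CPM. The lowest count behind any value was 23 in control and 155 in CYT libraries.

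Together the 30 genes took 406, 380 and 365 CPM in control libraries 1, 2 and 3, and 4223, 4241 and 4035 CPM in CYT libraries 1, 2 and 3. Their share of the library was 383 ± 20.7 CPM (SD, n = 3) in control and 4166 ± 114 CPM in CYT, a ratio of 10.9. POLR2A alone made up 38.6% of the CYT sum. Of the 30 genes, 29 are shown with their 6 values in the plot of levels by library.

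**Figure D1:**
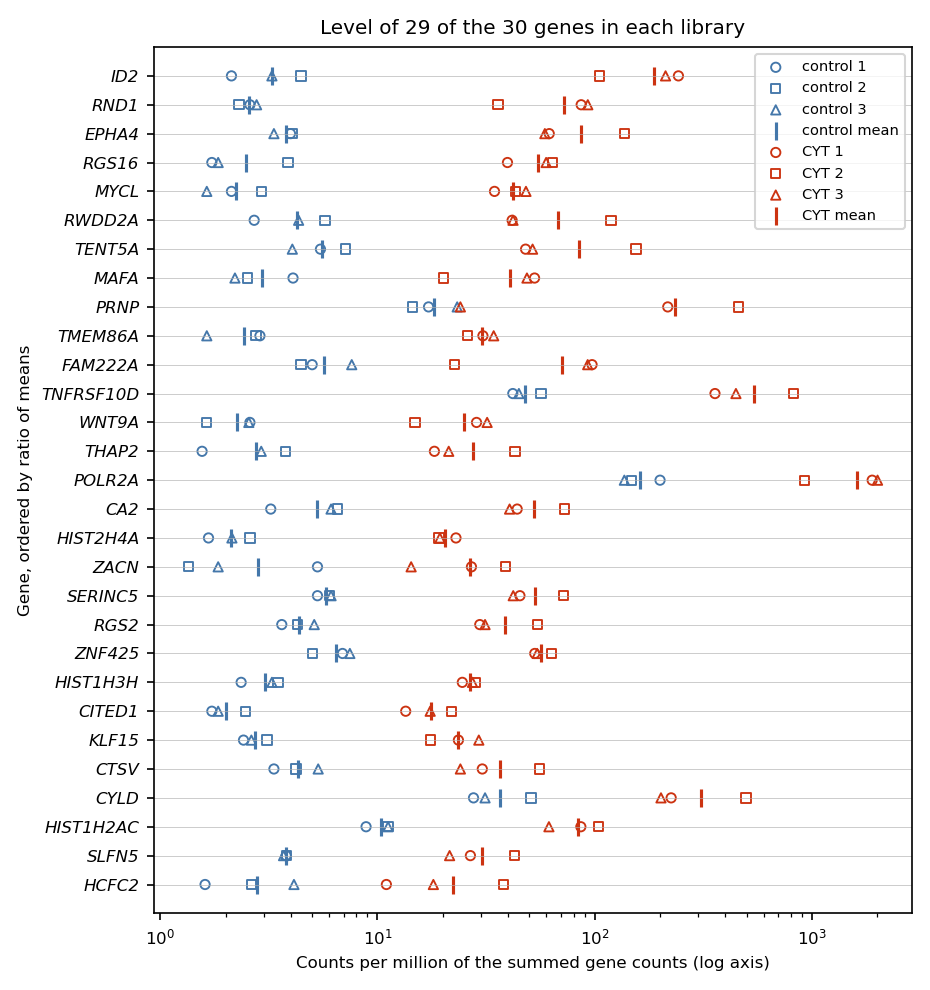
Level of each of 29 of the 30 genes in CPM on a log axis, with 1 symbol per library (circle, square and triangle for replicates 1, 2 and 3), control in blue, CYT in red and bars at the group means. No red symbol lies left of a blue one in its line, as the choice of genes requires, and PRNP in CYT 3 (24.1 CPM) nearly meets control 3 (23.3 CPM).

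Among the regulators of transcription, ID2 had the largest ratio of all. It stood at 2.13, 4.45 and 3.27 CPM in control libraries 1 to 3 and at 243, 105 and 212 CPM in CYT libraries 1 to 3. The means were 3.28 ± 1.16 and 187 ± 72.4 CPM (SD, n = 3), and even the lowest CYT library was 23.6 times the highest control library. Per length of the counted gene, ID2 went from 0.740 ± 0.261 to 42.1 ± 16.3 FPKM (fragments scaled by gene length and library depth), which made it the fourth most abundant of the 30 in CYT cells. The length behind its FPKM is 4436 bases, against 2041 in its longest mRNA. Comparisons per length between genes depend on the gene lengths used.

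The ID2 promoter is shown because ID2 had the largest ratio and carries 2 CCAAT boxes close to its start. Promoter sequence is from RefSeq (GRCh38.p14), which holds windows of 250 bases before to 50 after the start for 22 of the 30 genes. The stretch is chr2:8681926-8682055 (plus strand), written 5′ to 3′ and ending at the base before the start. Capitals mark the letters CCAAT, whose first bases are at -122 and -78 from the start.
ID2: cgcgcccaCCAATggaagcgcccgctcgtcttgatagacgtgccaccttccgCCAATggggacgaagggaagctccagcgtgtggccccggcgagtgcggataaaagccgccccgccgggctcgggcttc
The 300-base window of ID2 also holds a CCAAT match on the opposite strand at -172.

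MYCL, a member of the MYC family of transcription factors, had 2.13, 2.93 and 1.64 CPM in control and 34.6, 43.2 and 48.3 CPM in CYT libraries. Its 3 CYT libraries were 15.5, 19.4 and 21.6 times the control mean, with no library far from the others. MAFA, a basic leucine zipper factor known as an activator of the insulin gene, had 4.09, 2.53 and 2.21 CPM in control and 52.9, 20.1 and 48.8 CPM in CYT libraries. CYT 2 was the low one and at 6.84 times the control mean did not reach 8-fold by itself. The ratio of means of MAFA was 13.8.

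KLF15, a zinc finger factor of the Krueppel-like family known for metabolic control, had 2.42, 3.10 and 2.63 CPM in control and 23.6, 17.5 and 29.3 CPM in CYT libraries, a ratio of 8.63. CITED1, a coactivator that binds CBP and p300, had 1.73, 2.48 and 1.85 CPM in control and 13.5, 21.9 and 17.5 CPM in CYT libraries. Its control mean of 2.02 CPM was the closest of all to the minimum of 2 CPM, and its ratio was 8.73. HCFC2, a homologue of host cell factor HCFC1, had 1.61, 2.64 and 4.13 CPM in control and 11, 38.2 and 18.1 CPM in CYT libraries. Without CYT 2, its ratio was 5.20 in place of 8.03. THAP2, which carries a THAP-type zinc finger, and ZNF425, a zinc finger protein, had ratios of 10 and 8.81, and their CYT libraries ranged from 18.3 to 43.0 CPM and from 53 to 63.5 CPM.

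POLR2A, the largest and catalytic subunit of RNA polymerase II, was by group mean the most abundant of the 30 genes on both scales. In FPKM its CYT mean was close to that of TNFRSF10D (154 against 153). In CYT 2, TNFRSF10D (232 FPKM) and PRNP (103 FPKM) were above POLR2A (88.5 FPKM). POLR2A stood at 200, 148 and 137 CPM in control libraries and at 1894, 924 and 2005 CPM in CYT libraries. The ratio of means was 9.94, from 162 ± 33.4 to 1608 ± 595 CPM (SD, n = 3), or from 15.5 ± 3.20 to 154 ± 57.0 FPKM. CYT 2 reached 5.71 times the control mean, and CYT 1 and CYT 3 reached 11.7 and 12.4 times. The promoter of POLR2A at chr17:7484286-7484365 (plus strand) is shown as that of the most abundant gene, with the GC box letters GGGCGG in capitals at -67 and -52, and beside it that of SERINC5 at chr5:80256049-80256158 (minus strand), where 4 GC boxes in 1 direction start at -101, -90, -78 and -52.
POLR2A: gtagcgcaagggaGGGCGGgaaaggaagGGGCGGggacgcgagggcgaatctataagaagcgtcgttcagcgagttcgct
SERINC5: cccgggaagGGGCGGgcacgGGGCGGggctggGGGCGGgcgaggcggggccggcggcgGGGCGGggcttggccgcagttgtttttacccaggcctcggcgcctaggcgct
SERINC5, a multi-pass membrane protein that restricts retroviral infectivity, had a ratio of 9.15, with CYT libraries from 42.2 to 72.1 CPM.

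Core histones among the 30 genes were HIST1H3H, HIST1H2AC and HIST2H4A (H3C10, H2AC6 and H4C14 in current naming). HIST1H3H had 2.36, 3.49 and 3.27 CPM in control and 24.6, 28.3 and 27.4 CPM in CYT libraries, the smallest spread over CYT libraries of all 30 genes, with a highest library 1.15 times the lowest. HIST1H2AC had 8.87, 11.2 and 11.2 CPM in control and 86.4, 104 and 61.6 CPM in CYT libraries, a ratio of 8.06. HIST2H4A had 1.67, 2.59 and 2.14 CPM in control and 23.0, 19.2 and 19.4 CPM in CYT libraries, a ratio of 9.64. Reads of HIST2H4A and its near-identical copy HIST2H4B (2.68 CPM in control and 20.6 CPM in CYT as means) may be divided between them by the counting, so either value is uncertain. HIST2H4A also overlaps HIST2H3C on the opposite strand.

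TATA boxes are shown for the 4 genes that hold TATAAA within 40 bases of the start, TENT5A at chr6:81752682-81752741 (minus strand), HIST1H3H at chr6:27809991-27810050 (plus strand), CITED1 at chrX:72307158-72307217 (minus strand) and HIST1H2AC at chr6:26124112-26124171 (plus strand). Each line ends at the base before the start, and capitals mark TATAAA, whose first bases are at -30, -32, -29 and -31.
TENT5A: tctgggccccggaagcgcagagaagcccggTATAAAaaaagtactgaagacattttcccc
HIST1H3H: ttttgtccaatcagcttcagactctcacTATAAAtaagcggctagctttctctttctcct
CITED1: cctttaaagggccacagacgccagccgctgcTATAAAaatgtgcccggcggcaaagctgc
HIST1H2AC: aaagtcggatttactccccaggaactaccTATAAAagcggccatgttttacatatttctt
TATAAA on either strand was in 5 of the 22 promoters (22.7%), against 5.09% of 9333 promoters of expressed coding genes and 12% of all 27305 promoters of this length. The fifth is THAP2, at -181 on the strand opposite to the gene.

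Signalling genes among the 30 began with RND1, a small GTP-binding protein that does not hydrolyse GTP and rounds cells up. RND1 had 2.59, 2.31 and 2.78 CPM in control and 86.7, 35.9 and 93.0 CPM in CYT libraries, a ratio of 28.1. EPHA4, a receptor tyrosine kinase for ephrins, had 3.98, 4.05 and 3.34 CPM in control and 61.8, 137 and 59.0 CPM in CYT libraries, a ratio of 22.7. For RND1 the low CYT library was CYT 2, and for EPHA4 CYT 2 was the high one. WNT9A, a secreted WNT ligand, had a ratio of 11.1, with CYT libraries from 14.9 to 32 CPM.

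RGS16 had 1.73, 3.88 and 1.85 CPM in control and 39.7, 64.2 and 59.8 CPM in CYT libraries, with a ratio of 21.9 and a mean of 22.5 ± 5.38 FPKM (SD, n = 3) in CYT cells. RGS2, the other RGS gene, had a ratio of 8.85, with control libraries from 3.63 to 5.12 CPM and CYT libraries from 29.6 to 54.5 CPM. Both are on chromosome 1, and their promoters are shown as the pair of RGS genes, each with a CCAAT box near its start. That of RGS16, chr1:182604390-182604519 (minus strand), reads ATTGG here because its CCAAT at -71 is on the strand opposite to the gene, and that of RGS2, chr1:192808909-192809038 (plus strand), has CCAAT at -89.
RGS16: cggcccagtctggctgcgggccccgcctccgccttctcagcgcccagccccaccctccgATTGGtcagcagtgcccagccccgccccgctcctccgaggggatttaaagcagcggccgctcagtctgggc
RGS2: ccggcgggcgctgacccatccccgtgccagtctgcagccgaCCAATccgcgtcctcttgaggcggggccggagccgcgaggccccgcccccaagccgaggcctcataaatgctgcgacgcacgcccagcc
CCAAT on either strand was in 11 of the 22 promoters (50%), against 36.9% of promoters of expressed coding genes.

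TNFRSF10D, a decoy receptor for the death ligand TRAIL whose death domain is truncated, was by group mean the second most abundant of the 30 per length. It stood at 42.0, 56.6 and 44.8 CPM in control and at 358, 822 and 447 CPM in CYT libraries. The means were 13.5 ± 2.19 and 153 ± 69.5 FPKM (SD, n = 3), and the ratio of CPM means was 11.3. CYLD, a deubiquitinase that restrains NF-kB signalling, had 27.7, 51.0 and 31.3 CPM in control and 225, 497 and 202 CPM in CYT libraries, a ratio of 8.40. In CYLD, as in TNFRSF10D, library 2 was the highest within control and within CYT.

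ZACN, a ligand-gated channel opened by zinc, had 5.30, 1.35 and 1.85 CPM in control and 27.1, 38.8 and 14.3 CPM in CYT libraries. Its ratio of 9.43 became 16.7 without control 1. ZACN then no longer met the criteria, as the other control libraries (1.35 and 1.85 CPM) were under the minimum of 2 CPM. ZACN overlaps GALR2 on the same strand and exons of EXOC7 on the opposite strand. GALR2, which was not 1 of the 30, had 0.979, 2.08 and 1.71 CPM in control and 34.9, 9.42 and 28.6 CPM in CYT libraries, and EXOC7 had means of 194 and 350 CPM. SRP68, a coding gene on the opposite strand that overlaps ZACN outside its exons, was called lower, with means of 113 and 44.4 CPM (log2 fold change -1.38, edgeR adjusted p = 0.0131, and 0.0604 at the highest when 1 library was left out). The counting is not stated to use strand, so the reads of ZACN cannot be told apart from those of these genes where they overlap.

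Of the other membrane and metabolic genes, PRNP, the prion protein, was the exception in this set. It had 17.2, 14.5 and 23.3 CPM in control and 217, 461 and 24.1 CPM in CYT libraries, so CYT 3 was 1.32 times the control mean where CYT 1 and CYT 2 were 11.9 and 25.1 times. PRNP passed because CYT 3 lay just above control 3, by a factor of 1.04. Without CYT 2 its ratio fell to 6.59 from 12.8. Among the 11429 expressed coding genes, PRNP and HNRNPUL2-BSCL2 were the 2 with a pair of CYT libraries at 8 times the control mean or more and the other under 2 times.

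CA2, a cytosolic carbonic anhydrase, had 3.23, 6.53 and 6.12 CPM in control and 44.0, 72.7 and 40.6 CPM in CYT libraries, a ratio of 9.91. TMEM86A, a membrane protein, had 2.88, 2.76 and 1.64 CPM in control and 30.6, 26.0 and 34.3 CPM in CYT libraries, a ratio of 12.5 with every CYT library over 10 times the control mean. CTSV, a lysosomal cysteine protease, had a ratio of 8.56, with CYT libraries from 24.1 to 55.8 CPM.

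TENT5A, a non-canonical poly(A) polymerase, had 5.47, 7.15 and 4.06 CPM in control and 48.1, 155 and 51.8 CPM in CYT libraries, a ratio of 15.3 that was 8.99 without CYT 2. RWDD2A had a like pattern, with 2.71, 5.74 and 4.34 CPM in control and 41.7, 119 and 42.1 CPM in CYT libraries. The ratio of RWDD2A was 15.9, or 9.83 without CYT 2. FAM222A went the other way, with 5.01, 4.45 and 7.62 CPM in control and 97.3, 22.7 and 92.9 CPM in CYT libraries, so that CYT 2 reached 3.98 times the control mean and the ratio was 12.5. SLFN5, of the Schlafen family, had 3.80, 3.83 and 3.70 CPM in control and 26.8, 42.7 and 21.5 CPM in CYT libraries, a ratio of 8.03.

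Agreement between CYT libraries differed from gene to gene. All 3 CYT libraries were at least 8 times the control mean in 11 of the 30 genes, and by library 21, 24 and 18 of the 30 reached it in CYT 1, CYT 2 and CYT 3. The highest CYT library was 2.23 times the lowest in the median gene, 4.29 times in FAM222A and 19.1 times in PRNP. Across the 30 genes the median coefficient of variation of the CYT libraries was 37.9%, against 32.7% for 7188 expressed coding genes in the same range of CYT means. CYT 2 was the highest of the 3 in 19 genes, CYT 1 in 5 and CYT 3 in 6, and over expressed coding genes CYT 2 was the highest in 50.7%, CYT 1 in 28.8% and CYT 3 in 20.5%.

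**Figure D2:**
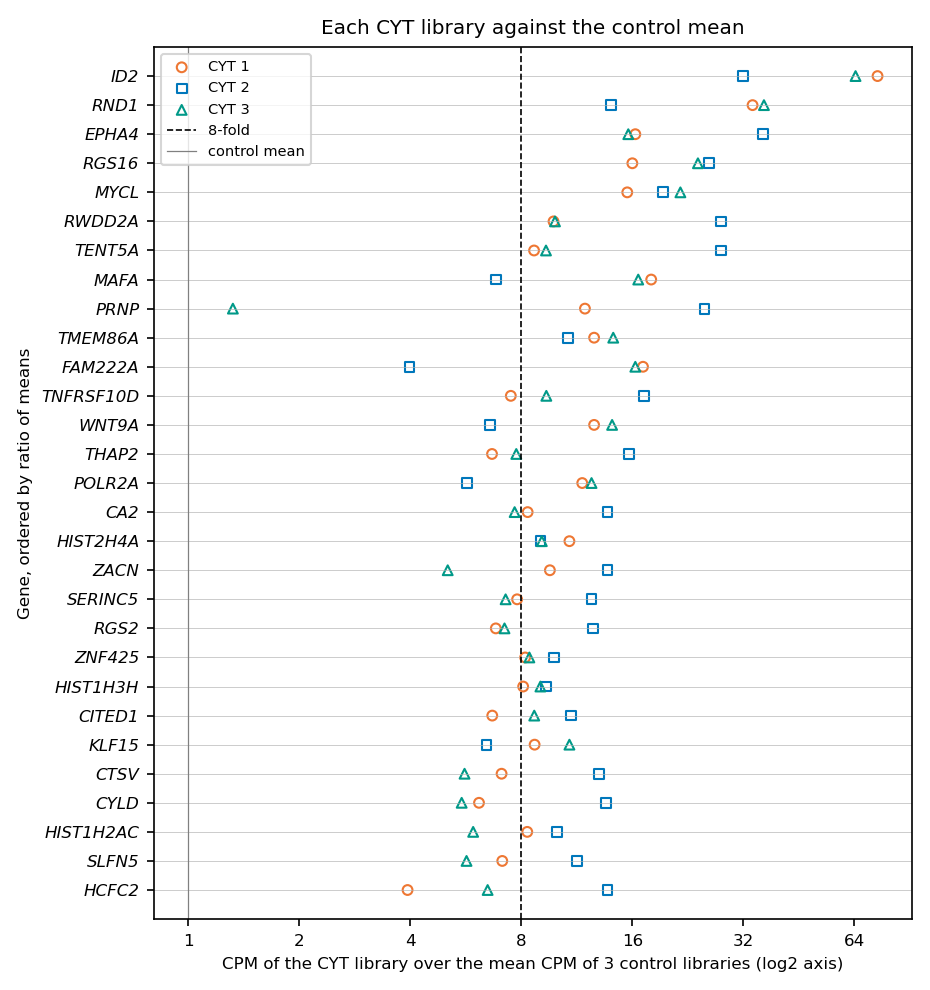
CPM of each CYT library over the mean CPM of the 3 control libraries for 29 of the 30 genes, on a log2 axis, with the dashed line at 8-fold. Symbols for CYT 2 (blue squares) sit apart from CYT 1 and CYT 3 in many genes, on the high side in TENT5A (27.8) and on the low side in FAM222A (3.98), and PRNP in CYT 3 sits at 1.32.

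CYT 2 differed from CYT 1 and CYT 3 along with the GC content of the mRNA. CYT 2 was over 2 times the mean of CYT 1 and CYT 3 in 9 genes (EPHA4, RWDD2A, TENT5A, PRNP, TNFRSF10D, THAP2, CTSV, CYLD and HCFC2), whose longest mRNAs had 36.7% to 47.1% GC. It was under 1 in 2 of that mean in 6 genes (ID2, RND1, MAFA, FAM222A, WNT9A and POLR2A), whose mRNAs had 53.3% to 65.1% GC. The other 15 genes spanned 39.1% to 61.6% GC. Pearson's r between GC content and the log2 ratio of CYT 2 to the mean of the other two was -0.775 over the 30 genes (Spearman's rank correlation -0.748) and -0.793 over 11335 expressed coding genes (rank correlation -0.819). These points all share the same 3 libraries, so r describes the libraries and is not a test.

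In all expressed coding genes the same shift was present: CYT 2 exceeded 2 times the mean of CYT 1 and CYT 3 in 19.9% and was under 1 in 2 of it in 15.4%. The median log2 ratio of CYT 2 was 1.09 in the 2277 genes with the lowest GC content and -1.09 in the 2277 with the highest. Control 2 shifted in the same direction, by 0.72 and -0.40. Between the groups, GC content and the log2 ratio of CYT to control had an r of 0.168 over the 30 genes and -0.187 over expressed coding genes. The part of GC content in the difference of each gene was not tested. As an alternative chosen after the data were seen, each library was centred within 5 equal bins of GC content, after which ID2 had a ratio of 64.8 with CYT libraries at 237, 141 and 213 CPM, and CYLD a ratio of 8.05 with CYT libraries at 275, 302 and 269 CPM. PRNP in the centred CYT libraries still stood at 226, 435 and 27.7 CPM. For ZACN and CITED1 centring widened the spread and moved the ratio by over 1.5 times, ZACN to 17.3 with CYT libraries at 24.9, 76.8 and 13 CPM, and CITED1 to 13.8 with CYT libraries at 12.4, 43.4 and 15.9 CPM. CITED1 no longer met the criteria after centring. The coefficient of variation over CYT libraries also rose in other genes, as in RGS16 (23.9% to 38.7%), MYCL (16.5% to 26.3%) and ZNF425 (10% to 29.3%). The median coefficient of variation over CYT libraries fell to 23.7%, and 24 of the 30 genes still met all criteria.

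**Figure D3:**
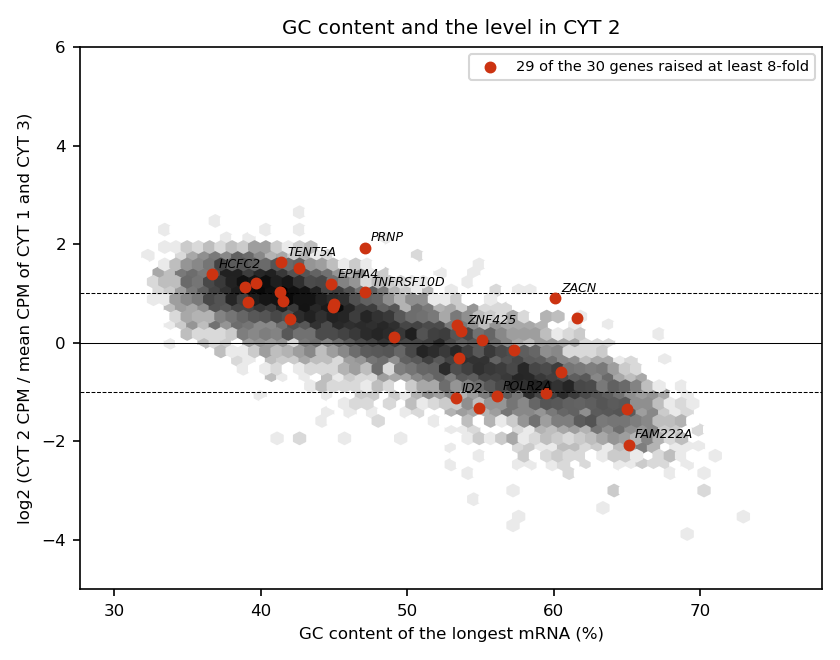
GC content of the longest mRNA (horizontal axis, percent) against the log2 ratio of CYT 2 to the mean of CYT 1 and CYT 3 (vertical axis), with expressed coding genes in grey (darker where more genes fall) and 29 of the 30 genes in red. Dashed lines mark a factor of 2 in either direction. Red points of low GC content lie mostly above 0 and those of high GC content mostly below it, as the grey band does, and PRNP and ZACN are among the points above the band.

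Values on both sides of the thresholds were close. Just inside 8-fold were HCFC2 (8.03), SLFN5 (8.03) and HIST1H2AC (8.06), and just outside were C21orf91 (7.97), PHETA1 (7.94) and ZNF720 (7.87). C21orf91 had 5.82, 4.28 and 1.57 CPM in control and 7.87, 65.9 and 19.2 CPM in CYT libraries. PHETA1 had 17.3, 17.5 and 16.7 CPM in control and 214, 34.4 and 161 CPM in CYT libraries. ZNF720 had 3.17, 2.98 and 2.85 CPM in control and 18.6, 31.0 and 21.2 CPM in CYT libraries.

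Closest above the control minimum were CITED1 (2.02 CPM), HIST2H4A (2.13 CPM) and MYCL (2.23 CPM). Closest below it were ZNF225 (1.95 CPM, ratio 8.57), CRISPLD2 (1.80 CPM, ratio 30.3) and GPR19 (1.79 CPM, ratio 10.6). CRISPLD2, a secreted protein, had 2.53, 1.80 and 1.07 CPM in control and 60.5, 56.3 and 46.8 CPM in CYT libraries, a larger ratio than 29 of the 30 genes. ZNF225 had 1.56, 2.87 and 1.42 CPM in control and 5.95, 32.2 and 12 CPM in CYT libraries, and GPR19 had 1.15, 2.36 and 1.85 CPM and 9.64, 32 and 15.1 CPM. Only HNRNPUL2-BSCL2 met the fold and the minimum but not the separation of groups, with 4.84, 0 and 5.55 CPM in control and 0.213, 48.1 and 51.0 CPM in CYT libraries.

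Relatives of the 30 genes were tested with edgeR's quasi-likelihood test over all 15572 genes, and a call needed a Benjamini-Hochberg adjusted p below 0.05 together with a log2 fold change beyond 1 in either direction. Of 12755 coding genes tested, 11.9% were called higher and 13.8% lower in CYT cells, and of all genes tested 15.2% and 12.2%. The balance among coding genes turned when they were fitted alone, with 1630 called higher and 1514 lower. The families were grouped by gene symbol after the 30 genes were known. Relatives come from the same contrast as the choice, and by that choice none of them met all its criteria. In the plot of relatives, 2 of 3 tested ID genes, 3 of 10 RGS genes and 1 of 6 ephrin receptors were called lower and none higher.

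ID2 was the low member of its family in control cells and the high one in CYT cells. ID1 had 163, 206 and 176 CPM in control and 95.8, 51.2 and 77.5 CPM in CYT libraries (log2 fold change -1.28 ± 0.325 SE, adjusted p = 0.0167 in edgeR, and 0.0524 at the highest when 1 library was left out). ID3 had 177, 173 and 165 CPM in control and 43.0, 19.6 and 38.4 CPM in CYT libraries and fell by 2.35 on the log2 scale (SE 0.374, edgeR adjusted p = 0.00228). ID4 had a log2 fold change of -0.45 that did not pass. Per length, the control means of ID1, ID3 and ID2 were 81.5, 62.1 and 0.740 FPKM and the CYT means 33.6, 12.2 and 42.1 FPKM.

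No other RGS gene was called higher, and 3 of 10 were called lower, against 11.9% and 13.8% of coding genes. RGS14 fell by 3.62 (SE 0.494, edgeR adjusted p = 0.00127), from 53.4, 28.9 and 39.8 CPM in control to 4.04, 1.61 and 4.32 CPM in CYT libraries. RGS3 fell by 2.48 (SE 0.408, edgeR adjusted p = 0.00251), and RGS19 by 1.23, a call that was lost in 7 of 11 alternatives. The difference between RGS16 or RGS2 and these relatives was not tested.

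TRAIL receptors moved in both directions. TNFRSF10B, a death receptor for TRAIL that lies downstream of TNFRSF10D on chromosome 8, had 118, 105 and 91.5 CPM in control and 210, 281 and 217 CPM in CYT libraries (log2 fold change 1.14 ± 0.278 SE, edgeR adjusted p = 0.0142, and 0.0813 without control 3). TNFRSF10A, the other death receptor, had 49.7, 47.1 and 38.6 CPM and 36.8, 49.2 and 36.9 CPM, and did not pass. TNFRSF10C, the other decoy receptor, had 24, 26 and 28 counts in control and 2, 3 and 3 counts in CYT libraries and was called lower (edgeR adjusted p = 0.00423). Per length, TNFRSF10D went from the level of TNFRSF10B in control (13.5 against 13 FPKM) to 153 against 29.2 FPKM. None of CASP8, FADD, CFLAR and CASP10, which act below these receptors, was called.

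RNA polymerase II has many subunits besides POLR2A. Of 14 other tested genes with POLR2 symbols, only POLR2K was called, at 101, 159 and 95.4 CPM in control and 224, 331 and 330 CPM in CYT libraries (log2 fold change 1.31 ± 0.312 SE, edgeR adjusted p = 0.0125, and 0.0704 at the highest when 1 library was left out). POLR2B, the second largest subunit, had 89.5, 136 and 136 CPM and 142, 295 and 112 CPM and did not pass. Of the 23 other genes in a list of transcription elongation and P-TEFb regulators, 3 were called higher (against 11.9% of coding genes) and none lower, with a list median of -0.18 on the log2 scale against 0.01 over all genes tested. They were HEXIM1 (1.5, edgeR adjusted p = 0.00494), an inhibitor of P-TEFb, ELL3 (1.53, edgeR adjusted p = 0.0134) and SUPT4H1 (1.03, edgeR adjusted p = 0.0171). The calls of ELL3 and SUPT4H1 were lost in 2 and 6 of 11 alternatives.

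The calls among histone relatives were all in 1 direction. Of 32 other tested histones of the clusters, 14 were called higher (43.8%, against 11.9% of coding genes) and none lower, with a median log2 fold change of 1.44. HIST1H2BC and HIST1H2BO lost the call in 7 and 4 of 11 alternatives. They and HIST1H3J passed the count filter only with their CYT libraries, which raises the share. The counted gene of HIST2H4A is 3682 bases by its FPKM, against 583 in its longest mRNA. Which transcript forms were counted cannot be told, and S phase was not measured. HIST2H2BE had 0.922, 1.29 and 3.13 CPM in control and 47.6, 54.0 and 44.7 CPM in CYT libraries (log2 fold change 4.76 ± 0.486 SE, edgeR adjusted p = 0.00049), and was left out of them by its control mean of 1.78 CPM. HIST1H4H rose by 3.63 and HIST1H3A by 3.04 on the log2 scale. HIST2H2AA4, the nearest tested gene downstream of HIST2H4A on its strand, rose by 2.83 (SE 0.405, edgeR adjusted p = 0.00154), and reads of its copy HIST2H2AA3 (2.71) may be mixed with it. HIST1H1E, HIST1H3C and HIST2H2AC had log2 fold changes of -0.86, -0.77 and -0.75 that did not pass.

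Other families differed in their calls. MYC, the tested relative of MYCL, had 7.14, 3.60 and 6.76 CPM in control and 5.18, 11.6 and 25.4 CPM in CYT libraries and did not pass. WNT3 and WNT5A rose by 2.07 and 2.01 and WNT10B fell by 1.65 on the log2 scale, the last not in all alternatives. KLF9 rose by 2.65 and KLF2 fell by 2.30. TENT5C rose by 2.11 (edgeR adjusted p = 0.00278) and SLFN12 by 2.04 (edgeR adjusted p = 0.00659). THAP10 rose by 2.45 and THAP4 fell by 1.72. TNFAIP3, which like CYLD edits ubiquitin chains and restrains NF-kB, rose by 1.30 (edgeR adjusted p = 0.0129), with an adjusted p of 0.0678 at the highest when 1 library was left out. Of 11 other cathepsins, 5 were called higher (45.5%, against 11.9% of coding genes), of which CTSC, CTSL and CTSO lost the call in 6, 5 and 1 of 11 alternatives. The others were CTSS (2.19) and CTSW, which had no count in control and 2.38 to 3.05 CPM in CYT libraries. CTSW and CTSO (0.519, 1.13 and 0.783 CPM in control) passed the count filter only with their CYT libraries. They could hardly be called lower, which raises the share, so it is not read as a result about cathepsins. EPHA2, the most abundant ephrin receptor, fell by 1.22, a call lost in 4 of 11 alternatives.

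**Figure D4:**
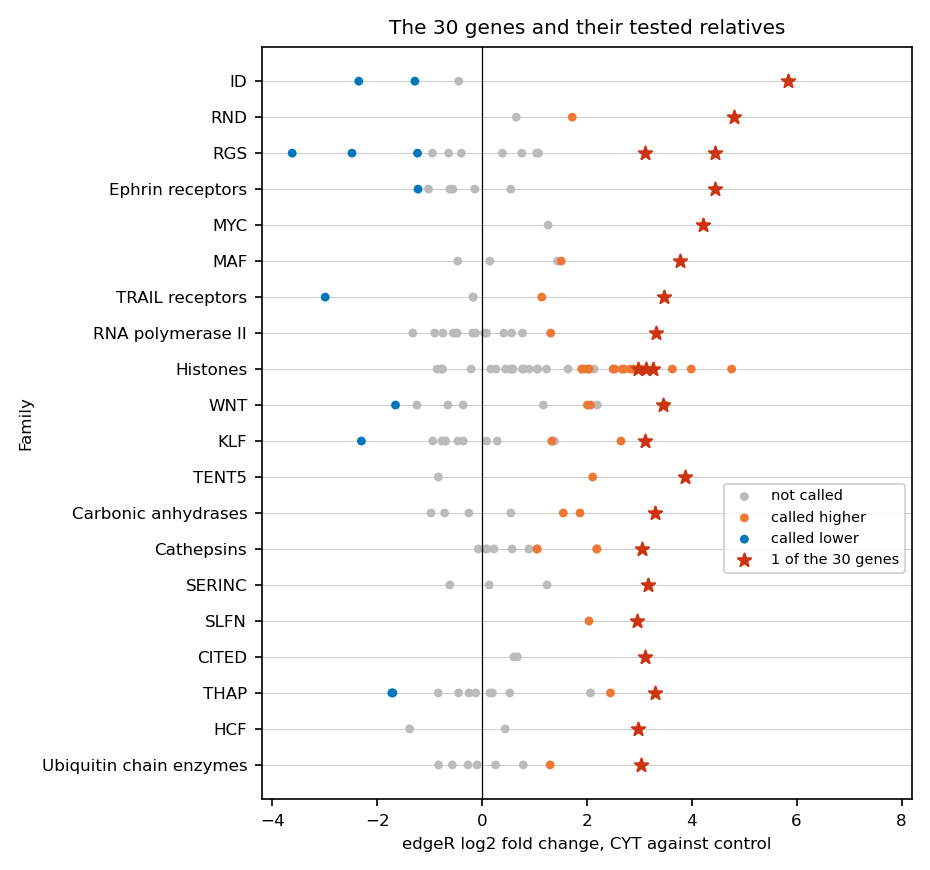
edgeR log2 fold change, CYT against control, of those of the 30 genes that have relatives shown (stars) and of tested relatives that have a count in control (points, orange for called higher, blue for called lower, grey for not called), by family. The stars are right of nearly all points by the way they were chosen, and the histones have orange points around and beyond their stars.

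Only 3 of the 30 genes, ID2, KLF15 and POLR2A, were in any of the 14 pathway lists, and the other 11 lists held none. The lists were written with earlier results of these data known, so their shares are no test. In the list of FOXO targets and quiescence genes, which holds KLF15, 12 of the 29 other tested genes were called higher (41.4%, against 11.9% of coding genes) and none lower, with a median of 0.998 on the log2 scale. Lists that hold none of the 30 ranged widely. Of xenobiotic response genes 5 of 12 were called higher and 3 lower, of immediate early genes 11 of 29 and 8, and of NRF2 target genes 2 of 20 and 0. In the FOXO list the largest log2 fold changes were those of YPEL1 (4.13), YPEL2 (4.1), HBP1 and KLHL24 (2.67), and YPEL2 was uneven, with 0.851, 16.9 and 5.81 CPM in CYT libraries. YPEL2, at most 0.576 CPM in control, passed the count filter only by its CYT libraries. HBP1, a repressor of proliferation genes, had 19.2, 19.4 and 17.7 CPM in control and 102, 213 and 103 CPM in CYT libraries (log2 fold change 2.85 ± 0.355 SE, edgeR adjusted p = 0.000927). In the list of HES, HEY and ID regulators, which holds ID2, 4 of 18 others were called higher (22.2%, against 11.9% of coding genes) and 3 lower (16.7%, against 13.8%), the latter being HEYL, whose call was lost in 4 of 11 alternatives, and the relatives ID1 and ID3. BAMBI, a decoy receptor of the TGF-beta family, rose by 2.25 (SE 0.319, edgeR adjusted p = 0.0015), and HEY1 by 1.92 (SE 0.372, edgeR adjusted p = 0.00512).

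Exon number and gene span were read from the annotation. The longest mRNA had a median of 4.5 exons, against 9 over 11382 expressed coding genes with an annotated mRNA, and 13 of the 30 (43.3%) had at most 3 exons, against 13.6%. The single-exon genes were MAFA, HIST2H4A and HIST1H3H, against 2.21% of expressed coding genes. Gene spans had a median of 15164 against 33578 bases, from 1237 for HIST1H3H to 261336 for TENT5A. The mRNAs had median lengths of 3275 and 3488 bases, and the median GC content was 51.2% against 48.6%. These are descriptions of 30 genes with no test.

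**Figure D5:**
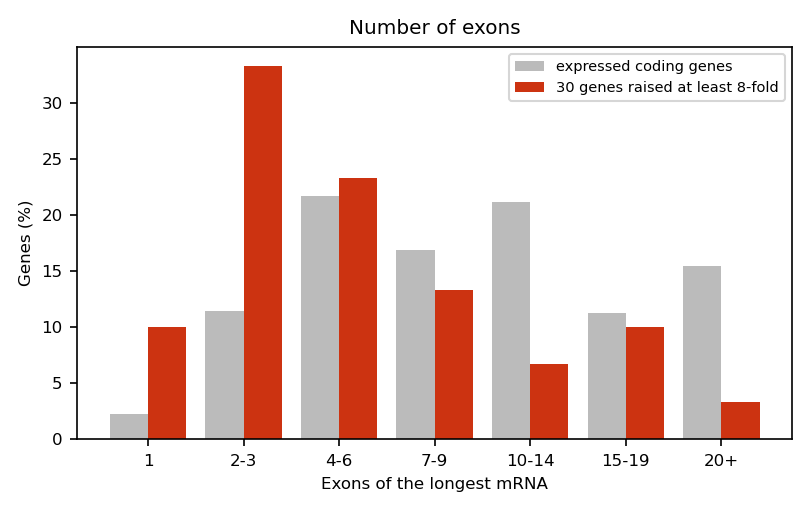
Share of genes (percent) by the number of exons of the longest mRNA, for the 30 genes (red) and for expressed coding genes (grey). Genes with 2 or 3 exons are 33.3% of the 30 and 11.4% of expressed coding genes, and genes with 20 or more exons 3.33% and 15.4%.

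GC boxes (GGGCGG on either strand) were in 19 of the 22 promoters (86.4%), against 72.2% of promoters of expressed coding genes. The cAMP response element TGACGTCA was in 1 (TMEM86A), against 3.50%, and the E-box CACGTG in 2 (KLF15 and HCFC2), against 10.3%. The AP-1 site TGANTCA, the C/EBP and ATF element TGATGNAA and the NF-kB site were in none of the 22 windows, against 4.29%, 1.59% and 2.13% of promoters of expressed coding genes. Median GC content of the promoters was 69.7%, against 65.7%. The motifs were picked after the genes were known, and a match or its absence says only which letters are in the window.

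The 30 genes were spread over 14 chromosomes, with 6 on chromosome 1, 4 each on chromosomes 6 and 12, and 3 each on chromosomes 8 and 17. None had another of the 30 as its nearest tested gene on the same strand. Of the 30 nearest genes upstream, 4 were called higher and 6 lower by edgeR, and of the 30 nearest downstream, 3 and 6, against 15.2% and 12.2% of all genes tested. Within 10 kb of a gene's end there were 2 upstream and 3 downstream neighbours, and none was called higher. The called neighbours included TNFRSF10B downstream of TNFRSF10D (66409 bases away) and HIST2H2AA4 downstream of HIST2H4A (11294 bases), which are relatives, and LGR5 upstream of THAP2 (log2 fold change 3.06 ± 0.560 SE, edgeR adjusted p = 0.00388).

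Of 8 antisense genes that overlap 1 of the 30, 3 had enough counts to be tested. These 3 were called higher, against 15.2% of all genes tested, and the other 5 had CYT means of at most 1.47 CPM. Control counts were low or absent in all 3, so they passed the count filter only with their CYT libraries. They could hardly have been called lower, and no conclusion on antisense genes is drawn. AC007728.2, antisense to exons of CYLD, had 0, 0.225 and 0 CPM in control and 3.05, 6.43 and 3.65 CPM in CYT libraries (edgeR adjusted p = 0.00200), and AC079834.2, antisense to EPHA4, had 0.864, 0.450 and 1.28 CPM and 4.82, 6.59 and 5.21 CPM (log2 fold change 2.64, edgeR adjusted p = 0.00408). The third, CA3-AS1, antisense to CA2, had no count in control and a mean of 1.17 CPM in CYT libraries. The antisense genes of EPHA4 and CYLD reached at most 6.59 CPM beside 59.0 CPM or more for EPHA4 and 202 CPM or more for CYLD. Without strand, reads of a gene and its antisense partner cannot be told apart. Among other coding genes on the opposite strand, PGM3, ZFC3H1 and PIN4, which overlap RWDD2A, THAP2 and CITED1, were not called.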

How the data were processed

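RNA of 3 control and 3 CYT libraries of MDA-MB-231-DR cells was measured. Per the study's methods, mRNA was separated from total RNA, reads were aligned with Hisat2, and FPKM was obtained with Stringtie. The submitters' processing notes name FastQC 0.12.1 and hg38. The program behind the raw counts, its annotation and its use of strand are not given in the sources used here. The authors deposited a table of raw counts and FPKM for 58302 genes, and the deposited FPKM is the count rescaled by gene length and depth (implied gene length differed by at most 0.00209% over 10160 genes with 50 or more counts in each library).

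CPM was the count over the summed gene counts of the library. The test across genes used edgeR 4.0.16 under R 4.3.3 on the deposited counts (TMM, filterByExpr with a minimum count of 10, quasi-likelihood test of CYT against control, Benjamini-Hochberg over 15572 genes), a method tested on simulated data. The 30 genes were taken from the same contrast, so no p is given for them. They and the gene lists were chosen with earlier results of these data known, and families, roles, motifs and the promoters shown after the 30 genes were known. Full values are given for the 12 genes with the largest ratio, the 12 with the highest CYT FPKM, those in a list, those that overlap or adjoin another of the 30, and 3 on each side of each threshold. Relatives, marker genes, overlapping genes and neighbours were named after their values were seen. Positions are those of GENCODE release 29 on GRCh38, where 58039 identifiers were found and all 30 genes had the table's locus. Of the 30 genes, 1 is counted in all summaries but not reported here by name, nor are some relatives and markers. Groups and replicate numbers come from the sample titles. Deviations of same-numbered libraries had an r of 0.188, 0.458 and 0.124 over genes, each above 0.1. However, control 1 with CYT 3 (0.303) and control 3 with CYT 1 (0.201) correlated more than same-numbered pairs 1 and 3. Deviations cancel within a group, so a shift shared by 1 same-numbered pair would by itself raise r among the other libraries. The check therefore cannot decide pairing, which rests on the labels' numbers alone. The edgeR values given are from the fit without a replicate block. Replicates differed by more than sampling noise, so none was counted as a copy. Alternatives were upper-quartile normalization, a fit of coding genes only, DESeq2 1.42.0, a replicate block, no filter on low counts, TMM-scaled CPM, other minimums, folds and medians, and leaving out each library. Centring by GC content and ratios of same-numbered pairs were added after the data were seen.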

Additional observations from a re-analysis of the deposited data

How the results depend on the processing

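Of the 30 genes, 25 met all criteria on TMM-scaled CPM and 16 with group medians in place of means (24 genes in all). A control minimum of 1 CPM gave 64 genes and of 5 CPM 11, and a fold of 4 gave 227 and of 16 gave 5. Leaving out 1 library gave 27 to 42 genes, of which 18 to 29 were among the 30, fewest without CYT 2. With each library centred within 5 bins of GC content there were 44 genes, 24 of them among the 30. By same-numbered pairs, which stand for a replicate block, 11 of the 30 reached 8-fold in every pair, and 25, 25 and 17 in pairs 1, 2 and 3. The lowest pair ratios were 1.04 for PRNP in pair 3, then 4.39 for HCFC2. Leaving out 1 library moved the ratio by over 1.5 times in RWDD2A (to 9.83), TENT5A (8.99), PRNP (6.59) and HCFC2 (5.2), each without CYT 2, and in ZACN (16.7, without control 1, where it fell under the control minimum).

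edgeR called 4274 genes, and 5011 with the replicate block (2590 higher and 2421 lower), 4749 by DESeq2, 4287 with upper-quartile normalization (2756 higher and 1531 lower), 5116 without the filter and 3144 among coding genes fitted alone (1630 higher and 1514 lower). Leaving out 1 library gave 2891 to 4979 calls, 1683 to 2651 higher and 1208 to 2328 lower. The lowest counts called lower, 1215, 1208 and 1232, were without control 1, control 3 and CYT 3. Upper-quartile normalization moved the median of all genes on the log2 scale to 0.155 from 0.00636. Of 49 called relatives and GALR2, 31 kept the call under all 11 alternatives and none changed direction. The replicate block lost none of these calls and moved the downstream neighbours called to 4 higher and 7 lower from 3 and 6. Of 23 other genes named with a call, 16 kept it in all alternatives run for them and CD14, ELL3, HEYL, KDR, PDGFRB, SRP68 and SUPT4H1 lost it in at least 1. With 3 libraries a group, an exact permutation test cannot go below 0.1.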

Other observations

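Genes of other types met the same criteria in 12 cases, 6 of them antisense, 3 lincRNA, 2 pseudogenes and 1 mitochondrial rRNA. The mitochondrial rRNA, MT-RNR2, had 1238, 1372 and 1671 CPM in control and 15090, 14951 and 15682 CPM in CYT libraries, a ratio of 10.7, and in CYT libraries took more of the counts than the 30 coding genes together (4035 to 4241 CPM). Its part in the other differences was not tested. OSER1-DT, a transcript divergent from OSER1, had 8.24, 6.92 and 11.1 CPM in control and 131, 114 and 155 CPM in CYT libraries. It was over 8-fold in each CYT library, and its ratio of 15.2 was above those of 23 of the 30 coding genes. The highest ratio among the 12 was that of the antisense gene AP005329.2, at 2.02, 3.77 and 2.35 CPM in control and 42.3, 66.6 and 48.7 CPM in CYT libraries (19.4). CTBP1-DT had 2.30, 1.58 and 4.06 CPM in control and 31.9, 22.1 and 27.0 CPM in CYT libraries, a ratio of 10.2. EMC3-AS1, typed as a pseudogene in the table, had 3.69, 1.80 and 7.33 CPM and 35.4, 33.3 and 38.1 CPM, a ratio of 8.34. Like the 30 coding genes, these were chosen by their values and are described without a test.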
